A study of Mus musculus with 32 samples.

Results

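BALB/cByJ is an albino inbred mouse strain, and its hippocampus was compared here with that of 7 other inbred strains. The members are the 4 arrays whose titles name BALB/cByJ, of 32 arrays in all, and the comparison set is the 28 arrays of SJL/J, FVB/NJ, A/J, C57BL/6J, C3H/HeJ, DBA/2J and the strain titled hippocampus_129S1SvImJ. Every strain was untreated and was represented by 1 pool of total hippocampal RNA from 6 mice, turned into cRNA in 2 preparations that were each hybridised to 2 arrays (arrays 1 and 2, then arrays 3 and 4). The labels give neither the ages nor the sexes of the mice. Values are log2 of the deposited signal of an Affymetrix mouse array, and a probe set is the group of probes that reads 1 transcript. Because a strain is 1 pool, no p-value measures the spread between animals. The p-values measure the spread between preparations, and the number of arrays limits the precision. The 2 arrays of a preparation were averaged before the test, so a split between them does not enter the p-values or standard errors (SE). In fits said below to take single arrays as units, the spread between arrays enters. Fits said below to pool the other strains are an exception, since differences between strains enter their spread too. The question is which transcripts stood higher or lower in BALB/cByJ than in the mean of the 7 other strain means.

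BALB/cByJ is widely used in behavioural work for its high anxiety-like behaviour, and it carries known alleles such as a deletion in Acads, the short-chain acyl-CoA dehydrogenase. The hippocampus is a cortical structure for memory and for the control of stress responses, built mainly of excitatory pyramidal and granule neurons with inhibitory interneurons and glia. Much of its energy goes into ion pumping and synaptic transmission, through the mitochondrial respiratory chain, while the proteasome and chaperones maintain its proteins.

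The 4 BALB/cByJ arrays stood apart from most others before any gene was considered. On this array, probe sets against the sense strand of actin and Gapdh should not bind the labelled cRNA. Their mean log2 signal was 7.64, 7.84, 7.80 and 7.60 on BALB/cByJ arrays 1 to 4. Among the 28 other arrays it ran from 4.91 to 7.51, and 7 of them, all from preparation 1 of A/J, C3H/HeJ, SJL/J and FVB/NJ, were also high at 6.95 or more. The BALB/cByJ arrays correlated less with each other (mean r from 0.891 to 0.911 over 7453 probe sets) than most other arrays did within their strain (0.907 to 0.955). Arrays 2 and 3 differed from arrays 1 and 4 in their bright probe sets. Of the 1491 brightest probe sets, 74 on array 2 and 76 on array 3 were at least 2-fold below the mean of the other strains' arrays, against 23 on array 1 and 4 on array 4. The same count on the other strains' arrays ran from 3 to 26. Many results below are therefore also given from arrays 1 and 4 alone, 1 array standing for each preparation, an alternative chosen after the data were seen. A gene given without this value is not thereby shown to hold on those 2 arrays.

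**Figure D1:**
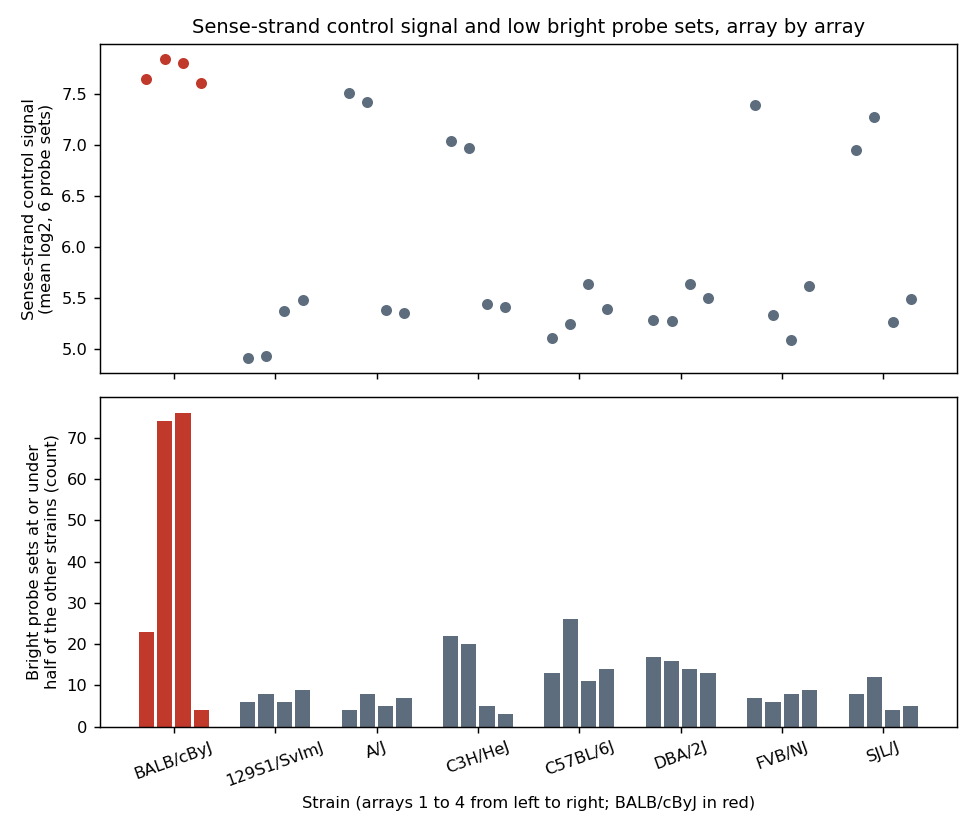
Upper panel: mean log2 signal of the 6 sense-strand control probe sets (vertical axis) on each array, by strain. Lower panel: number of the 1491 brightest probe sets at least 2-fold below the mean of the other strains' arrays. All 4 BALB/cByJ arrays, in red, lie between 7.60 and 7.84 in the upper panel, and arrays 2 and 3 reach 74 and 76 in the lower one.

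BALB/cByJ differed from the other strains at 665 of 7453 tested probe sets (8.92%), by limma with an adjusted p under 0.05. These named 564 genes. Lower levels outnumbered higher ones: 433 probe sets (5.81%) were lower and 232 (3.11%) higher in BALB/cByJ. A 2-fold or larger difference was seen at 123 (1.65%), of which 85 were lower (1.14%) and 38 higher (0.51%). At an unadjusted p under 0.05 there were 2217. Both preparations of BALB/cByJ lay outside all 14 other preparation values at 484 of the 665, against 1022 of all tested probe sets (13.7%). In 632 of the 665 BALB/cByJ was the highest or the lowest strain, a position that a test against the mean favours, and in 33 it was neither. The share over all tested probe sets is not given here. An extreme strain can still lie close to another: Casp9 on 100368_at had 6.99 in BALB/cByJ and 6.95 in C3H/HeJ. With arrays 1 and 4 alone, 368 probe sets passed (4.94%), 260 of them among the 665 in the same direction. With the preparation number as a replicate block, which pairs the strains by preparation, 2267 passed (30.4%), and the share of higher calls was 45.5% instead of 34.9%. By the day written in the array titles, however, BALB/cByJ arrays 3 and 4 share a day with only 1 other array, of FVB/NJ, so for preparation 2 the block does not pair BALB/cByJ with the other strains by day. Array 2 of FVB/NJ, counted in preparation 1, also carries the title day of array 3 of most other strains. With the arrays of the 2 days that BALB/cByJ arrays 1 and 2 share with the other strains, 457 passed (6.13%), 250 of them among the 665 in the same direction. This fit took single arrays as units, all from preparation 1 and with only 1 array of FVB/NJ. Its p-values thus do not measure the spread between preparations. With each array centred on its median, 1167 passed (15.7%) and 7.37% of them were higher, since this scaling moved the median difference of all tested probe sets by -0.15. With an offset of 64 added before the log, 859 passed (11.5%) and 50.9% of them were higher. The balance between higher and lower calls thus differed with the scaling.

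The lower calls were concentrated among bright probe sets. Of the 1491 brightest probe sets, 217 were lower (14.6%) and 51 higher (3.42%). Of the 1491 dimmest, 21 were lower (1.41%) and 32 higher (2.15%). The lower calls were also largest on arrays 2 and 3. In 178 of the 433 (41.1%), both of these arrays lay below both arrays 1 and 4, against 16.1% of all tested probe sets. The median difference of the lower calls was -0.59 on array 1, -0.91 on array 2, -0.84 on array 3 and -0.49 on array 4.

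**Figure D2:**
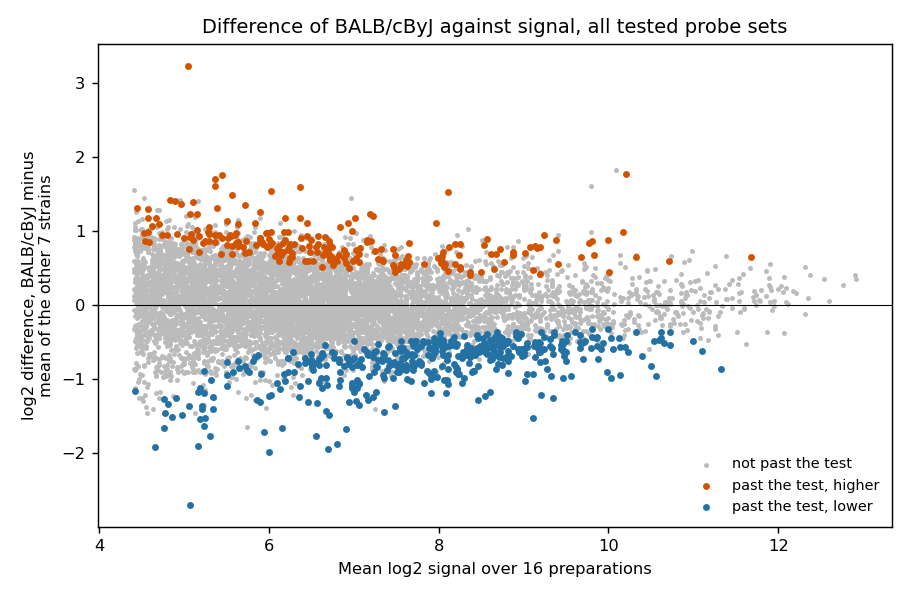
Each of the 7453 tested probe sets by its mean log2 signal over the 16 preparations (horizontal axis) and by the log2 difference of BALB/cByJ from the mean of the other 7 strains (vertical axis). Blue points are the 433 lower calls, orange points the 232 higher calls and grey points the rest, and the blue points gather at high signal.

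Each strain in turn was also set against BALB/cByJ in the same fit. These 7 comparisons share the BALB/cByJ arrays. The count was largest against C57BL/6J, with 563 probe sets (7.55%), and DBA/2J followed with 435 (5.84%). It was 169 against FVB/NJ (2.27%), 144 against the strain titled hippocampus_129S1SvImJ (1.93%) and 126 against A/J (1.69%). The smallest counts were those against C3H/HeJ, with 112 (1.5%), and SJL/J, with 100 (1.34%). The replicate block moved these counts to between 743 for SJL/J and 1995 for C57BL/6J.

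A set of 21 probe sets (0.282% of those tested) passed the test in the same direction in 7 settings: as above, with the replicate block, with median centring, with an offset of 16, with the sense-strand signal as a covariate, and without each BALB/cByJ preparation. Of these 17 were lower (0.228%) and 4 higher (0.0537%). Arrays 1 and 4 alone kept 19 of the 21 past the test. Leaving out a preparation does not separate these arrays from the rest, since each preparation holds 1 of them.

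Atp6v1d, subunit D of the proton pump that acidifies vesicles and lysosomes, was low on all 4 BALB/cByJ arrays. Its log2 signal was 7.75, 7.54, 8.04 and 7.80 on arrays 1 to 4, against a range of 7.91 to 9.67 and a median of 9.48 on the other 28. SJL/J came near, with a strain mean of 8.15, while the other 6 strains lay between 9.39 and 9.52. The difference was -1.52 ± 0.11 (SE; 2.87-fold lower, limma adjusted p = 4.8e-06), and -1.53 from arrays 1 and 4 alone.

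Padi2 encodes a peptidylarginine deiminase, which converts arginine in proteins to citrulline. It read 5.96, 4.53, 5.46 and 5.68 in BALB/cByJ, below all 28 other arrays (6.13 to 7.77). The difference was -1.49 ± 0.16 (2.80-fold lower, limma adjusted p = 0.00025), or -1.07 from arrays 1 and 4.

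Sdhc is a membrane anchor of succinate dehydrogenase, complex II of the respiratory chain. On arrays 1 to 4 it read 8.51, 8.72, 8.16 and 8.52, and no other array was below 9.23. The difference was -0.96 ± 0.11 (1.95-fold lower, limma adjusted p = 0.00028), and -0.93 from arrays 1 and 4, so the outer pair of arrays gave nearly the same value as all 4.

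Suclg1, the alpha subunit of succinate-CoA ligase of the citric acid cycle, was lower on all 4 arrays but unevenly. It read 7.80, 7.10, 6.96 and 8.02, against 8.17 to 9.20 elsewhere, with a difference of -1.23 ± 0.12 (limma adjusted p = 0.00011) that was -0.80 from arrays 1 and 4 alone.

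Clcn3, a chloride-proton exchanger of endosomes and synaptic vesicles, had the same order of arrays. Its probe set 102786_at read 8.64, 7.82, 7.72 and 8.81, all below the 28 other arrays (9.08 to 9.73), and the difference of -1.26 ± 0.10 (limma adjusted p = 5.2e-06) was -0.78 from arrays 1 and 4. The other 3 probe sets assigned to Clcn3 gave differences of -0.51, -0.30 and -0.08 that did not pass.

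Cntn1, the neuronal adhesion protein contactin 1, read 8.54, 7.67, 7.57 and 8.79, against 8.60 to 10.01 elsewhere, and its difference was -1.21 from all 4 arrays and -0.69 from arrays 1 and 4. For Hsp90aa1, the inducible cytosolic HSP90 chaperone, arrays 1 and 4 read 11.57 and 11.11, inside the range of the other strains (10.83 to 11.95), while arrays 2 and 3 read 10.02 and 9.60. Its difference of -0.86 ± 0.13 (limma adjusted p = 0.0021) became -0.09 from arrays 1 and 4, with an adjusted p of 0.69. The SE does not hold this split, since each preparation averages 1 array of each pair. An unnamed probe set, 97313_at, had the same pattern, with -0.69 from 4 arrays and -0.04 from those 2 (adjusted p = 0.81).

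The other lower members of the set were Acaa1b (-1.77 ± 0.29), a peroxisomal thiolase, the scaffold protein Slc9a3r1 (-1.01 ± 0.12), the complex I subunit Ndufa7 (-0.98 ± 0.14), the proteasome subunit Psma6 (-0.86 ± 0.12), Cd47 (-0.77 ± 0.11), a cell-surface ligand that inhibits phagocytosis, 1 probe set of Pdxdc1, and 3 probe sets without a single gene name, 95696_at, 93078_at and 93163_at. For the 5 genes with values here the adjusted p ran up to 0.0036, and with arrays 1 and 4 alone their differences were -1.82, -1.31, -0.81, -0.61 and -0.68. A second probe set of Cd47 (95020_at) gave -0.14 (adjusted p = 0.65) and one of Acaa1b (102004_at) -0.44 (adjusted p = 0.46), neither past the test.

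**Figure D3:**
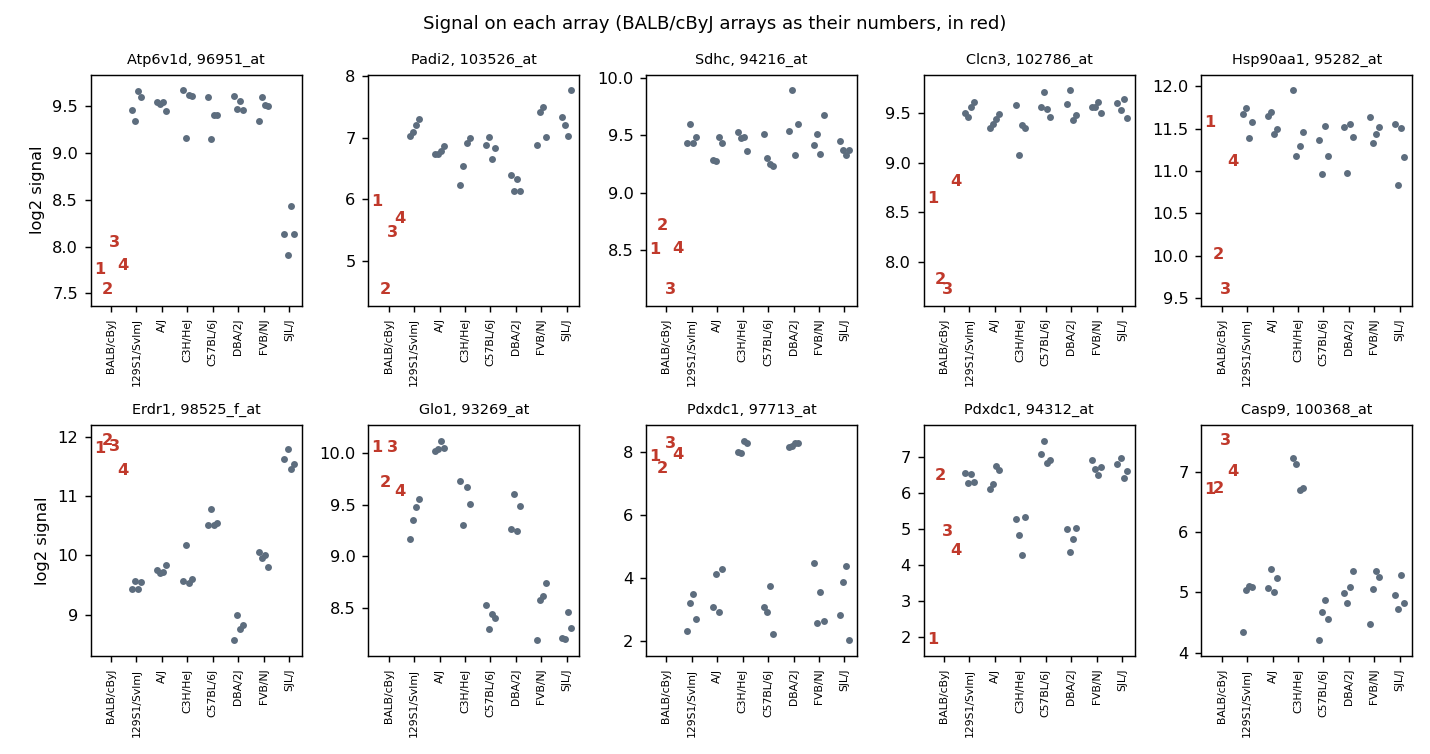
Log2 signal of 10 probe sets (vertical axes) on each of the 32 arrays, by strain. BALB/cByJ arrays are drawn as their numbers in red and other arrays as grey points. Atp6v1d, Padi2 and Sdhc are low on all 4 BALB/cByJ arrays, with SJL/J near for Atp6v1d, and Hsp90aa1 only on arrays 2 and 3. Pdxdc1 on 97713_at, Erdr1, Glo1 and Casp9 share their high level with other strains. On 94312_at Pdxdc1 is low in BALB/cByJ, DBA/2J and C3H/HeJ.

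The 4 higher members of the set had a level that another strain reached or came near. The unnamed 96215_f_at, for example, had 9.44 in BALB/cByJ and 9.27 in SJL/J, with a difference of 1.52 ± 0.13. Glo1, the glyoxalase that removes methylglyoxal and a gene often studied for anxiety-like behaviour in mice, read 10.06, 9.72, 10.06 and 9.63 in BALB/cByJ. A/J was higher still, at a strain mean of 10.06, C3H/HeJ, DBA/2J and hippocampus_129S1SvImJ lay between 9.39 and 9.55, and C57BL/6J, FVB/NJ and SJL/J between 8.30 and 8.53. The difference from the mean of the 7 was 0.78 ± 0.11 (1.71-fold, limma adjusted p = 0.0013). A second probe set of Glo1 gave 0.52 and did not pass (adjusted p = 0.059).

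Erdr1, the erythroid differentiation regulator, read 11.81, 11.94, 11.85 and 11.43 on probe set 98525_f_at, and SJL/J had nearly the same strain mean (11.61 against 11.76). The other 6 strains lay between 8.79 and 10.60, and the difference was 1.77 ± 0.11 (3.41-fold, limma adjusted p = 1.1e-06). Its other probe set, 98526_r_at, was also higher, by 1.59 ± 0.41.

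Pdxdc1, a gene of the pyridoxal-dependent decarboxylase family, ran in opposite directions on its probe sets. On 97713_at BALB/cByJ read 7.85, 7.47, 8.27 and 7.93. C3H/HeJ and DBA/2J were at the same height (8.15 and 8.22), while the remaining 5 strains lay between 2.94 and 3.61. The difference from the mean of the 7 strains was 3.23 ± 0.23 (limma adjusted p = 3.5e-06). Those 5 strains lie under the limit of 4.41, and the difference was 2.25 with an offset of 16 and 1.37 with one of 64. On 94312_at the same 3 strains were the lowest: BALB/cByJ had a mean of 4.45, DBA/2J 4.78 and C3H/HeJ 4.94, against 6.44 to 7.08 elsewhere. The BALB/cByJ arrays spread widely there, from 1.93 on array 1 to 6.49 on array 2. Over the 8 strain means these 2 probe sets had r = -0.971, which is a description of 8 values from shared arrays.

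Casp9, the initiator caspase of the mitochondrial death pathway, was chosen after its values were seen, because all 4 of its tested probe sets were higher. The differences were 0.98 ± 0.16, 1.11 ± 0.20, 1.18 ± 0.18 and 1.75 ± 0.23, with limma adjusted p from 0.0011 to 0.0068. C3H/HeJ shared this level: on 100368_at BALB/cByJ had 6.99, C3H/HeJ 6.95 and the other 6 strains 4.58 to 5.17. From arrays 1 and 4 alone the 4 differences were 0.90, 0.93, 1.17 and 1.62.

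Levels shared with some strains were found for other genes as well. Rgs5, a regulator of G-protein signalling that marks pericytes, had 6.33 in BALB/cByJ, 6.16 in C57BL/6J and 6.64 in DBA/2J, against 4.17 to 4.54 in the other 5 strains. Of these 5 strains 3 lie under the limit of 4.41. The Rgs5 difference of 1.39 became 0.98 with an offset of 16 and 0.54 with one of 64. A dimmer Rgs5 probe set, 96180_at, differed by 0.89 and did not pass (limma adjusted p = 0.089). Thumpd1, a protein that acts in tRNA acetylation, had 5.67 in BALB/cByJ and 5.15 to 5.32 in A/J, C3H/HeJ and DBA/2J, while the remaining 4 strains had 7.71 to 7.92. In Cplx2, complexin 2 of synaptic vesicle release, BALB/cByJ (10.16) lay with C3H/HeJ (10.23) and A/J (10.65) above the rest (8.24 to 9.39). The Cplx2 difference of 0.88 ± 0.24 became -0.18 among the arrays with high sense-strand signal, which include A/J and C3H/HeJ.

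Among genes where both BALB/cByJ preparations lay outside all others, the lowest was Clip4, a protein with microtubule-binding CAP-Gly domains. It read 3.54, 2.38, 1.85 and 3.07, against a median of 5.82 elsewhere, a difference of -2.70 ± 0.45 (limma adjusted p = 0.0044), with A/J next at 3.42. Its BALB/cByJ mean of 2.71 lies under 4.41, the lowest mean log2 signal at which a probe set was tested, and the difference was -1.42 with an offset of 16 and -0.66 with one of 64. Cpsf3, the endonuclease that cuts pre-messenger RNA before polyadenylation, followed with -1.99 ± 0.24 (adjusted p = 0.0004), on values from 2.17 on array 3 to 5.68 on array 4, and with -1.26 and -0.67 with these offsets. BALB/cByJ was under 4.41 in 7 of the 12 lowest genes (Clip4, Cpsf3, Acaa1b, Rpap3, Npy1r, Rb1 and Gpc4), where the size of the difference depends on the offset. Uqcc1, which helps to assemble complex III of the respiratory chain, read 4.40, 4.06, 5.76 and 5.71, below all other arrays (6.21 to 7.68), with -1.95 ± 0.27 (3.85-fold lower, adjusted p = 0.0015).

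Aldh1a1, a retinaldehyde dehydrogenase, was 3.68-fold lower (-1.88 ± 0.25, limma adjusted p = 0.0011). BALB/cByJ had 5.16, SJL/J 5.81 and FVB/NJ 6.19, and the other 5 strains had 7.05 to 7.79. Kif5b, the heavy chain of the transport motor kinesin-1, was 3.19-fold lower (-1.67 ± 0.23, adjusted p = 0.0013), but its preparations did not both lie outside the others. BALB/cByJ had 5.44 ± 0.72 (SD of 2 preparations), hippocampus_129S1SvImJ 6.09 with C3H/HeJ just below it, and the other 5 strains 7.17 to 7.87.

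Several of these strongly lower genes were nearer to the other strains on arrays 1 and 4. Npy1r, the Y1 receptor for neuropeptide Y, read 4.89 and 4.93 on arrays 1 and 4 but 2.72 and 2.68 on arrays 2 and 3. The mean of each preparation was then 3.81, with an SD of 0.00, although the arrays within a preparation lay far apart. Its difference of -1.63 ± 0.26 (limma adjusted p = 0.0036) was -0.52 from arrays 1 and 4 (adjusted p = 0.22). Nsg1, a neuronal endosomal protein, changed likewise from -1.77 to -0.98 (adjusted p = 0.064 with arrays 1 and 4). A dimmer Nsg1 probe set, 161463_f_at, gave 0.18 from all 4 arrays and did not pass (limma adjusted p = 0.75). Rb1, the retinoblastoma protein, changed from -1.51 to -1.16 (adjusted p = 0.091) and Gpc4, the proteoglycan glypican 4, from -1.46 to -1.19 (adjusted p = 0.055). Rpap3, a cochaperone of HSP90, had -1.66 from all 4 arrays and -1.90 from arrays 1 and 4.

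The 12 highest genes with both preparations above all others, ordered by their difference from the mean of the 7 strains, were dim. Their mean log2 signals ran from 4.45 to 6.36 with a median of 5.26, against medians of 5.65 for the 12 lowest and 6.51 for all tested probe sets. Of the 12, 6 came from probe sets with an added letter in the suffix (here _r_at, _i_at or _f_at), against 18.7% of all tested and none of the 12 lowest. Such a letter marks probes less sure to be specific. They were led by Prp2 (1.70 ± 0.49), 1 probe set of Gstm5 (1.61 ± 0.31), the second Erdr1 probe set and Tcte1 (1.54 ± 0.30). Gstm5, a glutathione transferase, has 3 other tested probe sets: 100629_at was lower by the same test (-0.48 ± 0.12, adjusted p = 0.026), and the others differed by -0.01 and 0.02 without passing, so its probe sets disagreed. Prp2 has a brighter probe set, 93651_r_at, at 0.41, that did not pass (adjusted p = 0.59). Probe sets also disagreed for Hspd1, the mitochondrial chaperonin HSP60, at 1.49 on 161140_r_at and -0.96 on the brighter 93277_at, and Ubn1 and Tubb2a each have a brighter probe set that did not pass (-0.37 and -0.04). Ubn1 (1.42 ± 0.38), Zfp213 (1.41 ± 0.33), Slc25a45 (1.37 ± 0.38), Clps (1.31 ± 0.37), Hspg2 (1.30 ± 0.28), Tubb2a (1.25 ± 0.33) and Gm17811 (1.23 ± 0.27) completed the group. The order by distance to the nearest strain was another, with Ubn1 (1.22) and Clps (1.19) ahead of the second Erdr1 probe set (0.88) and Tcte1 (0.61). Hspg2 encodes perlecan, a proteoglycan of basement membranes. Clps, which encodes pancreatic colipase, had a mean of 4.28 in the other strains, under the limit of 4.41, so it was tested only through its level in BALB/cByJ (5.60) and its difference is a value without support from the test. The other 11 had limma adjusted p-values between 0.0074 and 0.045.

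Gene lists were read against named genes as a whole, with 1 probe set a gene. Of 5660 named genes 9.17% were called, 2.97% higher and 6.2% lower, and the median difference over all named probe sets was 0.00. Among the 1491 brightest probe sets, with a mean log2 signal from 7.95, the lower share was 14.6%. That share is the closer measure for bright lists. The proteasome, the protease that degrades ubiquitin-tagged proteins, had the most lower calls. Of its 35 tested subunits 11 were lower, none was higher and 29 had a difference below 0, with a median of -0.36. They came from the catalytic core (Psma2, Psma3, Psma6, Psmb1, Psmb5, Psmb7) and from the regulatory cap (Psmc1, Psmd6, Psmd7, Psmd11, Psmd12). Differences ran from -0.37 ± 0.10 for Psma2 to -0.91 ± 0.18 for Psmd12. Psmd12 gave -0.41 from arrays 1 and 4 (limma adjusted p = 0.23), and 13 of the 28 other arrays lay below its highest BALB/cByJ array. Dimmer probe sets of these genes did not pass and went both ways: Psmb5 had 0.55, Psmd11 0.25 and -0.22, and Psmb1 -0.49. Psma6 read 9.02, 8.25, 8.29 and 8.52, against 8.69 to 9.67 elsewhere, and Psmd7 7.57, 7.21, 7.61 and 7.42 against 7.51 to 8.97, so that 1 and 2 of the 28 other arrays lay below the highest BALB/cByJ array. From arrays 1 and 4 alone 6 subunits were called, with a median of -0.32. Without preparation 1 of BALB/cByJ 1 subunit was called and without preparation 2 only 3, while median centring gave 18 and the replicate block 18 lower and 1 higher. With the sense-strand signal as a covariate 1 was called and the median was -0.17. Their part in the result was not tested.

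Chaperones were the next largest group of lower calls, with 8 of 35 lower, none higher and a median of -0.27. Besides Hsp90aa1 and Hspd1 these were Hspe1, Pdia3, Hspa2, Hspa5, Dnajb6 and Dnaja1, with differences from -0.43 ± 0.10 (Dnaja1) to -0.79 ± 0.23 (Pdia3). From arrays 1 and 4 alone 2 chaperones were called, with the replicate block 15 lower and 1 higher, and with the sense-strand covariate 1.

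Hspd1 and Hspe1, which form the mitochondrial chaperonin and its lid, are neighbours that face away from each other across 1 start region. Hspe1 read 7.61, 7.17, 6.52 and 8.31, a difference of -0.64 ± 0.16 (limma adjusted p = 0.026) that was -0.08 from arrays 1 and 4, and Hspd1 read 8.42, 8.35, 8.69 and 9.40. RefSeq (GRCm38.p6) has 2 promoter windows for Hspd1, of which 1 holds the motif searched here, and the Hspe1 window shares 285 of 300 bases with 1 of them. The window is printed to show the region that both genes use, at chr1:55087898-55088197 on the plus strand, 5′ to 3′, with capitals for the matches to GAANNTTCNNGAA, a heat shock element, searched on both strands. The 2 overlapping matches end 71 bases before the Hspe1 start. The motif occurs in 198 of 32851 RefSeq promoter windows of this length (0.603%), and in those of 4 of the 29 chaperone genes of the list that have a window.
Hspe1: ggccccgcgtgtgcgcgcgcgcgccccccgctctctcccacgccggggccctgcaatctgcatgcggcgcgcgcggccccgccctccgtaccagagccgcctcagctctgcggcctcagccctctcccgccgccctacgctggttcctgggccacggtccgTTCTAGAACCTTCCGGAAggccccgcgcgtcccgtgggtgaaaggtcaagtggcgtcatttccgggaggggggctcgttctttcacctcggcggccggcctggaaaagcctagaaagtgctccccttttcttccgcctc

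The respiratory chain and ATP synthase had 7 lower calls and no higher call among 58 tested genes, with a median of -0.09, near that of all genes. The list was bright, with a median log2 signal of 9.22. Its 7 of 58 was no larger a share than the 14.6% lower among the 1491 brightest probe sets. The 7 were 5 subunits of complex I (Ndufa7, Ndufa9, Ndufab1, Ndufc1 and Ndufv2), Sdhc of complex II and Atp5c1 of ATP synthase. A dimmer probe set of Ndufv2 gave 0.24 and one of Atp5c1 -0.42, neither past the test. Ndufa7 read 9.25, 8.97, 9.05 and 9.45 against 9.25 to 10.91 elsewhere, and DBA/2J was the nearest strain at 9.35. Ndufc1 read 8.65, 7.66, 7.82 and 8.78 against 8.73 to 9.83, and its difference of -0.93 ± 0.16 became -0.45 from arrays 1 and 4 (limma adjusted p = 0.1). From arrays 1 and 4 alone 3 genes of the list were called lower. The covariate for sense-strand signal also gave 3, and the replicate block 14 lower and 3 higher.

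Ndufa7 also has a called neighbour, the ribosomal protein gene Rps28, on the opposite strand. Rps28 read 10.55, 10.28, 9.95 and 10.22 against a median of 10.69 elsewhere, a difference of -0.54 ± 0.15 (limma adjusted p = 0.038). None of the 25 tested ribosomal protein genes passed on its brightest probe set, and the Rps28 call came from the second brightest of its 3 probe sets (the brightest had -0.53, adjusted p = 0.073). The Ndufa7 window lies at chr17:33824322-33824621 on the plus strand (GRCm38.p6, RefSeq), and capitals mark the 109 bases that it shares with the Rps28 window.
Ndufa7: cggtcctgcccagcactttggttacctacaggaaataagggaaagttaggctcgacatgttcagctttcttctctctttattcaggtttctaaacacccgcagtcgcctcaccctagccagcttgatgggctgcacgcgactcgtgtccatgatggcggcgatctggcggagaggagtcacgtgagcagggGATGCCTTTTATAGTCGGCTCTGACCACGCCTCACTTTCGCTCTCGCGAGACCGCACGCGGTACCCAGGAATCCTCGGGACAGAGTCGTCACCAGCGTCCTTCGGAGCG
In all, 1835 pairs of adjacent protein-coding genes had both genes tested, and in 18 of them (0.981%) both were called. In 5 pairs both were lower, in 7 both higher, and in 6 the directions were opposite or mixed.

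The citric acid cycle and glycolysis had 4 lower calls of 29 tested genes and no higher one. This list was bright too (median log2 signal 9.0), and 4 of 29 was no larger a share than that 14.6%. After Suclg1 came Mdh2, mitochondrial malate dehydrogenase, at -0.82 ± 0.14, Pdhb of pyruvate dehydrogenase at -0.69 ± 0.20 and Idh3g of isocitrate dehydrogenase at -0.57 ± 0.12. BALB/cByJ was not the lowest strain for Pdhb, at 8.24 against 7.95 in hippocampus_129S1SvImJ. Only 1 gene was called from arrays 1 and 4 alone. Fatty acid oxidation had 3 lower calls of 19, the thiolases Acaa1b, Acaa2 (-0.82 ± 0.18) and Acaa1a (-0.48 ± 0.14). FVB/NJ was lower than BALB/cByJ for Acaa2 (6.84 against 6.99), and for Acaa1a BALB/cByJ (6.58) lay with A/J (6.55), C3H/HeJ (6.61) and FVB/NJ (6.63). The vacuolar proton pump had 4 of 13, Atp6v1d, Atp6v1g1 (-0.91 ± 0.17), Atp6ap2 (-0.88 ± 0.19) and Atp6v1c1 (-0.61 ± 0.14), of which 2 were called from arrays 1 and 4.

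Glutathione, peroxide and glyoxal defence went both ways, with 2 of 32 tested genes higher and 4 lower. Glo1 and the glutathione transferase Gstm2 (1.00 ± 0.21) were higher. Gsto1 (-0.99 ± 0.28), the mitochondrial peroxidase Prdx3 (-0.97 ± 0.17), Gstz1 (-0.63 ± 0.15) and Mgst3 (-0.59 ± 0.13) were lower. From arrays 1 and 4 alone Gsto1 gave -0.33 and did not pass (limma adjusted p = 0.4), while Glo1, Gstm2 and Prdx3 passed.

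**Figure D4:**
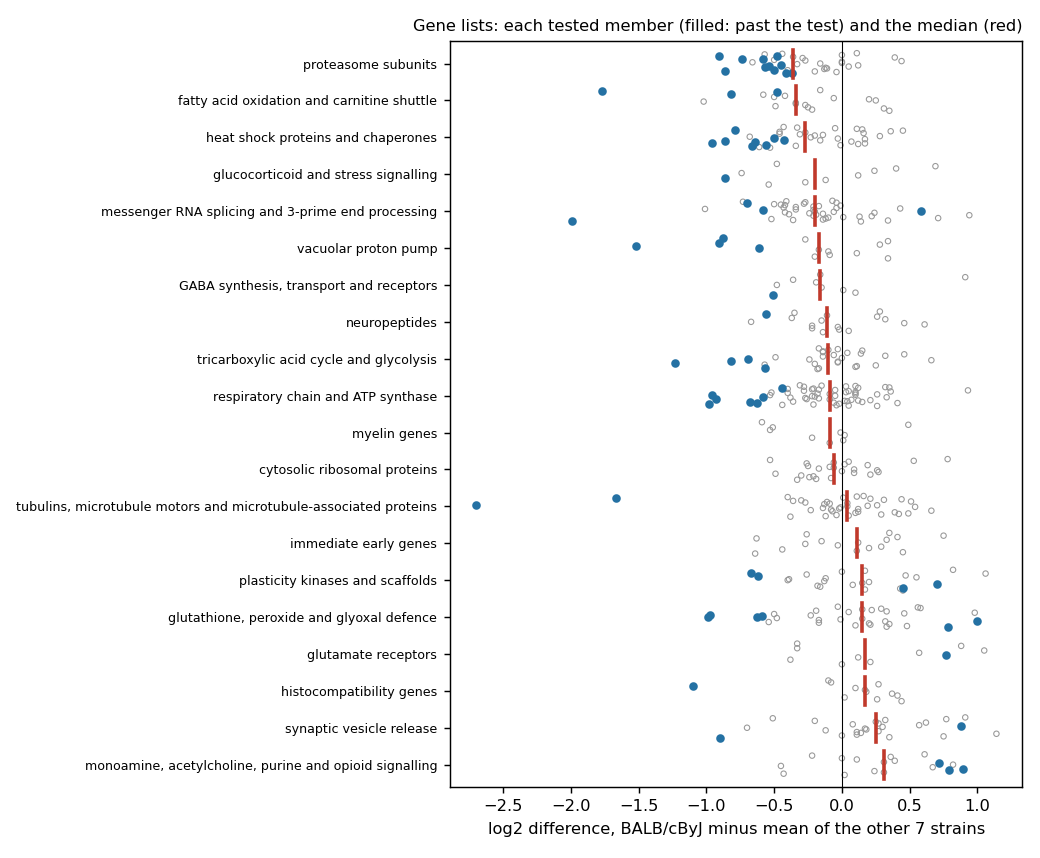
Log2 difference of BALB/cByJ from the mean of the other 7 strains (horizontal axis) for each tested gene of 20 lists. Filled points passed the test, open points did not, and red bars are list medians, which run from -0.36 for the proteasome to 0.31 for monoamine, acetylcholine, purine and opioid signalling.

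Genes of neurotransmission were called in both directions. Of 17 tested genes of monoamine, acetylcholine, purine and opioid signalling 3 were higher and none lower, with a median of 0.31. They were the serotonin receptors Htr7 (0.89 ± 0.21) and Htr5a (0.79 ± 0.18) and the dopamine receptor Drd4 (0.72 ± 0.21, limma adjusted p = 0.05). Htr7 read 6.75, 7.29, 6.69 and 6.36 against 5.19 to 6.59 elsewhere, and 2 of the 28 other arrays exceeded the lowest of these. None of the 3 was called from arrays 1 and 4, without preparation 1 or with the sense-strand covariate, and median centring gave 2 higher calls and 1 lower one.

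Grin2b, the NR2B subunit of the NMDA receptor, was the 1 higher call of 10 tested glutamate receptor genes (0.77 ± 0.19). BALB/cByJ had 7.36, close to hippocampus_129S1SvImJ (7.26) and SJL/J (7.25), and 11 of the 28 other arrays exceeded its lowest array. DBA/2J was far below the rest at 4.73, with FVB/NJ next at 6.50. Gad1, the main enzyme of GABA synthesis, was the only one of 9 genes of the GABA list and was lower by a small and even amount. It read 9.29, 9.15, 9.21 and 9.29, below all other arrays (9.39 to 10.03), with -0.51 ± 0.10 (1.42-fold lower, limma adjusted p = 0.011) and -0.45 from arrays 1 and 4.

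Among 25 genes of synaptic vesicle release, Cplx2 was higher and Syt1, the calcium sensor synaptotagmin 1, lower (-0.90 ± 0.13). Syt1 read 9.57, 9.03, 8.34 and 9.84, and from arrays 1 and 4 its difference was -0.39. Among 23 plasticity genes, the protein kinase A catalytic subunit Prkaca (0.70 ± 0.12) and neurogranin, Nrgn (0.45 ± 0.13), were higher. Brain-derived neurotrophic factor, Bdnf (-0.67 ± 0.16), and the scaffold Dlg1 (-0.62 ± 0.14) were lower. Bdnf was even across the BALB/cByJ arrays, at 7.74, 7.73, 7.75 and 7.69, against 7.22 to 8.91 elsewhere, with 1 other array below them. Its difference from arrays 1 and 4 was -0.68, and with the sense-strand covariate it was -0.44 (limma adjusted p = 0.44).

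In the remaining lists, messenger RNA processing had 1 higher call (Srsf4) and 3 lower calls (Cpsf3, Hnrnpk and Srsf5) of 44. A dimmer Srsf4 probe set gave -0.31 and did not pass. Tubulins and microtubule proteins had 2 lower calls (Clip4 and Kif5b) of 39. Stress signalling had 1 of 10 (Hsp90aa1). Neuropeptides had 1 of 17 (Scg2, -0.56 ± 0.15, or -0.16 from arrays 1 and 4) and histocompatibility genes 1 of 12. That gene, B2m, the light chain of class I molecules, was 2.14-fold lower (-1.10 ± 0.21), and read 5.46, 5.84, 5.89 and 6.26 against 5.93 to 7.75. No gene was called by limma among 16 immediate early genes, 9 myelin genes and 25 ribosomal protein genes. At an unadjusted p under 0.05 these lists had 5, 2 and 9 genes, against 1688 of all 5660.

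Of 7 loci with known alleles in BALB/c mice 6 had a named probe set on the array, and of these only Acads and Prkdc were bright enough to be tested. Acads had 7.83 in BALB/cByJ and 7.48 in the other strains on 161469_r_at, a difference of 0.35 ± 0.16 (limma adjusted p = 0.17). On 103401_at it had 5.11 and 4.35, and this probe set reached the limit of 4.41 only through BALB/cByJ. The position of these probes in the gene was not analysed here. Prkdc, the DNA-dependent protein kinase, differed by -0.57 ± 0.21 (adjusted p = 0.096), and by 0.19 from arrays 1 and 4.

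Of the listed markers of hippocampal neurons, 9 of 10 for excitatory and 8 of 8 for inhibitory neurons had a named probe set on the array. All of these were bright enough over all strains to be tested. Neuronal markers had medians of -0.19 (9 excitatory genes: Nrgn higher, Calb1 lower) and 0.00 (8 inhibitory genes: Gad1 lower). Astrocyte markers had a median of 0.03, with Gja1 (-0.60 ± 0.13) and Aqp4 (-0.59 ± 0.14) lower of 7, and none of 6 oligodendrocyte or 7 microglial genes was called by limma (1 and 4 at an unadjusted p under 0.05). Markers of tissue that a dissection can carry along had few calls. Ttr, the transthyretin of choroid plexus, was lower (-0.90 ± 0.15), but C57BL/6J was lower still (6.11 against 6.72). The globin Hbb-b2 was also lower (-0.73 ± 0.16), at 6.44, with C57BL/6J at 6.23 and SJL/J at 6.34. Col1a2 was the 1 higher call (0.75 ± 0.17) of 6 genes of meninges and fibroblasts, of which 4 had a difference below 0 and the median was -0.13. Rgs5 was the 1 higher call of 5 genes of endothelium and pericytes, of which 3 were below 0, with a median of -0.08, while none of 3 markers of neighbouring regions was called (2 at an unadjusted p under 0.05). In bulk tissue, fewer cells of a type and less RNA per cell cannot be told apart. The summed signal of the choroid plexus list was 208 to 287 in BALB/cByJ and 160 to 528 elsewhere, and that of the blood list 717 to 985 against 697 to 1690. Their part in the results was not tested.

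Differences of BALB/cByJ followed a shift between preparations that the other strains show among themselves. In the other 7 strains, preparation 1 was compared with preparation 2, and the mean of this shift correlated with the BALB/cByJ difference over 7453 probe sets at r = 0.497. For each other strain, its difference from the remaining 6 correlated with their preparation shift at -0.346 to 0.179. The shift was below 0 at 357 of the 433 lower calls (82.4%) and above 0 at 181 of the 232 higher calls (78%), while it was below 0 at 60.5% of all tested probe sets. Among the 17 lower probe sets that passed in 7 settings it was below 0 at 8. One of these settings was the sense-strand covariate, and the high arrays of the other strains all came from preparation 1. The selection thus favoured probe sets without the shift, so the 8 of 17 cannot be read against the 82.4%. These correlations are across probe sets of shared arrays and carry no p-value.

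**Figure D5:**
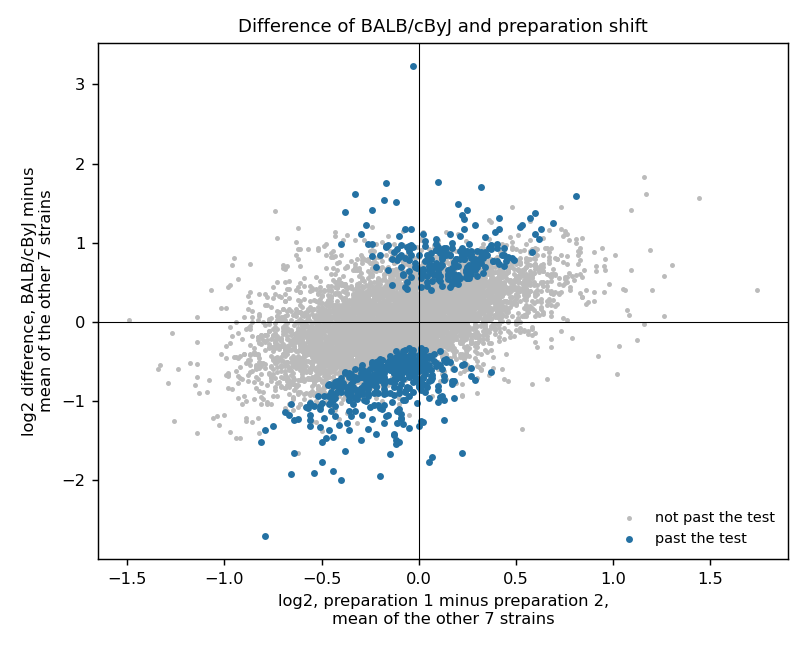
Each tested probe set by the mean shift between preparations 1 and 2 of the other 7 strains (horizontal axis, log2) and by the log2 difference of BALB/cByJ from those strains (vertical axis). Blue points passed the test. The cloud tilts upwards to the right, with r = 0.497 over 7453 probe sets.

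With the 2 BALB/cByJ preparations set against preparation 1 of the other strains alone, 32 probe sets passed (0.429%), 30 of them among the 665, and the median difference of the 665 was 0.89 times its size. Against preparation 2 alone 3057 passed (41.0%), 623 of the 665 among them, at 1.11 times. Both fits pooled the other 7 strains into 1 group, so differences between strains entered the spread. Their counts are therefore not like that of the 665. Pdxdc1 on 97713_at, for example, had 3.25 against preparation 1 alone, with a limma adjusted p of 0.22. With the sense-strand signal as a covariate 27 probe sets passed (0.362%), 25 of them in common, and the 665 had 0.8 times their size at the median. When the arrays with high sense-strand signal were compared with each other, array by array, 53 passed (0.711%) and 45 were in common, with 0.78 times the size at the median. All of the 665 kept their direction with the covariate, and all but 2 did so among the high arrays. Leaving out BALB/cByJ preparation 1 gave 117 calls (1.57%) and leaving out preparation 2 gave 335 (4.49%). Leaving out single arrays moved the count to 1202 without array 1 and to 441 without array 2 of BALB/cByJ. How far the sense-strand signal, the preparation and arrays 2 and 3 account for the 665 calls was not tested.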

How the data were processed

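Total hippocampal RNA of 8 mouse strains was measured on 32 Affymetrix U74Av2 arrays. The deposited intensities are 1 linear signal per probe set, made by the authors with MAS5 per the submitters' processing notes; neither its version nor its scaling target was found in the labels. Each array's mean, with 2% trimmed from both ends, lay between 100.05 and 100.07. Groups came from sample titles, and no 2 arrays were identical. Signals under 1 were set to 1 and log2 taken. Tests covered 7453 of 12422 probe sets, namely the brightest 60% by mean (signal from 21.3), without controls. The 2 arrays of a preparation were averaged, and 8 strain means were fitted to 16 values with limma 3.58.1 in R 4.3.3 (eBayes with a trend, 8 residual degrees of freedom, Benjamini-Hochberg over all tested probe sets, threshold 0.05). The sense-strand score used the 6 actin and Gapdh control rows, although all sense-strand control rows had been planned.

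Preparation numbers pair the strains per the series design. The shift between preparations correlated for all 28 pairs of strains, at 0.109 to 0.244 with BALB/cByJ and 0.301 to 0.557 without. Names came from the platform annotation (10855 of 12422 probe sets with 1 symbol) and RefSeq tables. A gene's brightest probe set stood for it in lists. Named genes were the 12 highest and 12 lowest with both preparations outside all others, up to 4 called genes a list, all known-allele loci, up to 10 each way past the test in 7 settings, 6 each way by gap to the nearest strain, and the controls; Casp9, Thumpd1, Rps28, the second probe sets of named genes, and further called members of the proteasome, chaperone, respiratory and glutathione lists were chosen after their values were seen. Members and lists were chosen with earlier results of these data known. On simulated data of 7453 probe sets the BALB/cByJ contrast recovered 70% of 100 changes of 1 and 100% of 100 changes of 2 on the log2 scale, with 9 unchanged probe sets called. The simulated noise was independent between preparations and equal on both arrays of each. It held no shift between preparations and no sense-strand signal, so the 9 give no rate of false calls for the real arrays. Alternatives covered scaling, filter, offset, block, units, day, sense-strand signal and left-out arrays.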

Additional observations from a re-analysis of the deposited data

Results flagged for a closer look

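In 5 of the 112 probe sets examined, 1 BALB/cByJ array lay far from the other 3. Chance alone flags about 1 group in 20, so this count is near what chance gives. Dlg1 read 7.12 on array 3, with the others between 7.59 and 7.63. The unnamed probe set 95696_at read 7.07 on array 3, with 7.39 to 7.45 on the others. Atp6v1g1 read 7.09 on array 2 and 7.74 to 7.78 elsewhere. For Casp9, 100367_g_at read 7.30 on array 3 against 6.99 to 7.03, and 103711_at read 7.30 on array 2 against 6.58 to 6.66. The 3 low values and both high ones all fell on arrays 2 or 3, but with a count near the chance rate no result is drawn from this.

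The sense-strand controls, which enter no comparison of genes, had a mean log2 signal of 7.72 over the 4 BALB/cByJ arrays (7.60 to 7.84), against a median of 5.43 on the other 28. Its part in the results was not tested.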

How the results depend on the processing

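Of 665 calls (123 of them 2-fold or more), counts under other settings were, in the same order, 1167 and 248 with median centring, 2267 and 210 with the preparation as a replicate block, 27 and 19 with the sense-strand covariate, 0 and 0 in preparations with high sense-strand signal only, 53 and 27 in arrays with high signal, 2048 and 205 with single arrays as units, 1899 and 289 with the title day as a block, 303 and 73 without array 2 of FVB/NJ, 32 and 14 against preparation 1 and 3057 and 505 against preparation 2 of the other strains. Arrays 1 and 4 of BALB/cByJ alone gave 368 and 108, arrays 2 and 3 alone 1371 and 476. The 2-fold count was 239 with all probe sets tested, 78 with the brightest 40%, 219 after quantile normalization, 52 with an offset of 16 and 11 with one of 64. In high-signal preparations only, where limma called 0, 1015 probe sets had an unadjusted p under 0.05. This fit and those against preparation 1 or 2 alone pooled the other strains, so strain differences entered their spread. The fit with the title day as a block took single arrays as units. Leaving out 1 array or preparation gave 117 to 1202 calls and 63 to 333 at 2-fold. Besides the BALB/cByJ values above, the count moved over 1.5 times without preparation 2 of DBA/2J (433) or FVB/NJ (407), without array 1 of C57BL/6J (421) and without array 2 of FVB/NJ (303). The cause was not tested.

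Against single strains, median centring and the replicate block gave 326 and 896 calls for hippocampus_129S1SvImJ, 336 and 1087 for A/J, 264 and 850 for C3H/HeJ, 1157 and 1995 for C57BL/6J, 726 and 1801 for DBA/2J, 447 and 1626 for FVB/NJ, and 249 and 743 for SJL/J. The median difference over all tested probe sets was 0.0017 and -0.15 with median centring, and -0.02 to 0.048 when a BALB/cByJ preparation was left out. Of the 109 named probe sets past the test, 108 kept their direction in every alternative that gave a value (67 or 68 for each). Cplx2 was -0.09 in preparations and -0.18 in arrays with high sense-strand signal, and Prkdc, which did not pass, was 0.19 from arrays 1 and 4. Of 7389 values of these probe sets, 1098 no longer passed.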
